A study of Mus musculus with 17 samples.

Results

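The metabotropic glutamate receptor genes Grm2, Grm3, Grm4, Grm5, Grm7 and Grm8 were followed in the bulk nuclear RNA and in the single nuclei of control mice and of mice exposed to chronic unpredictable stress (CUS). The 6 genes were taken by symbol from a fixed list of names, chosen with earlier results of these data known. All 6 were found among the 36293 genes of the bulk tables and the 37608 genes of the nuclei tables. All mice were male C57BL/6, given as C57Bl/6J in the methods. CUS mice received 3 varying stressors a day for 12 days, and control mice were handled without stress. Bulk nuclear RNA-seq was made from the medial prefrontal cortex (mPFC) of 4 control and 5 CUS mice at postnatal day 90, and single-nucleus droplet sequencing (sNucDrop-seq) from the neocortex of 4 control and 4 CUS mice at postnatal day 80. No gene was deleted or overexpressed in any of these mice, and the 2 assays used different animals.

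Metabotropic glutamate receptors are G protein-coupled receptors that respond to glutamate over a slower course than the ionotropic receptors. Group I, which includes the Grm5 product mGlu5, couples to Gq and phospholipase C and sits mainly around the postsynaptic density, where Homer proteins tether it. Group II, the products of Grm2 and Grm3, and group III, here Grm4, Grm7 and Grm8, couple to Gi/o and lower cyclic AMP. Most group III receptors are presynaptic and restrain transmitter release. Grm3 is also known from astrocytes, and mGlu5 from medium spiny neurons of the striatum.

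Most members were long genes, so that nuclear reads on them could come largely from introns. In the mm10 (GRCm38) coordinates of the bulk files, Grm5 lay on the plus strand of chr7:87584168-88134907, Grm2 on the minus strand of chr9:106643095-106656082 and Grm3 on the minus strand of chr5:9485541-9725170. Grm4 lay on the minus strand of chr17:27422387-27521403, Grm7 on the plus strand of chr6:110645581-111567230 and Grm8 on the minus strand of chr6:27275119-28135178. These starts and ends were the same as in GENCODE vM21, in which exons covered 0.639% of the span of Grm7, 1.15% of Grm8, 1.27% of Grm3, 1.86% of Grm5, 6.04% of Grm4 and 37.7% of Grm2. The largest coding transcripts held 11 exons in Grm4, Grm7 and Grm8, 10 in Grm5, 7 in Grm2 and 6 in Grm3. Few reads fell on other genes inside these spans. The highest were 80 to 125 reads per mouse on Gm20387, antisense to Grm7, and 18 to 36 on Mir592, inside Grm8 on its strand.

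Depth was 26188825 to 30525015 reads on genes per mouse in bulk, and 4491665 to 12354909 unique molecular identifiers (UMIs) in 1853 to 4234 nuclei per mouse in sNucDrop-seq. Of the 26518 nuclei kept, 24 barcodes occurred in more than 1 library. Control replicate 4 had the fewest UMIs and nuclei. In median UMIs per nucleus CUS replicate 2 was the lowest of the 8 mice with 1771, but control replicate 1 was close with 1814. CUS replicate 2 stood apart because leaving it out raised the number of genes called in excitatory nuclei from 2 to 656 of 5344 (0.0374% to 12.3%). CUS replicate 2 was thus singled out by an outcome of these data, which limits what the calls without it can show. The main differences in nuclei are therefore given with and without this mouse, and also without CUS replicate 1, where most of them were smallest.

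Per kilobase of gene span, 4 of the 6 receptors lay between 1.49 and 2.50 CPM (counts scaled to a common library size of 1e+06) in the nuclear RNA of the mPFC. Over the 9 bulk mice, Grm5 had a mean of 2.50 CPM per kb, Grm7 2.16, Grm3 2.09 and Grm2 1.49, while Grm8 had 0.859 and Grm4 0.230. In the pooled nuclei of the neocortex the same quantity was 2.36 for Grm5, 1.92 for Grm3, 1.55 for Grm7, 0.991 for Grm2, 0.293 for Grm8 and 0.117 for Grm4. Grm5 was thus the highest and Grm4 the lowest on this scale in both assays. Without correction for span, Grm7 and Grm5 gave 41.2% and 37.5% of the 6 genes' UMIs, whereas Grm2 and Grm4 gave 0.372% and 0.335%, or 855 and 771 UMIs in all nuclei together.

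Nuclei were grouped into classes after clustering in which none of the 6 genes took part, and a class carries a cell type's name with "-like" only where fixed markers led its cluster; otherwise it is called by its leading genes. The levels below are means ± SD of CPM over 8 mice in the 26 classes with over 200 nuclei. They describe these classes and were not tested. Neighboring classes were counted as distinct only where their means differed by more than the larger SD.

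Grm5, the group I member, was found in every neuronal class and was lowest in astrocyte-like and oligodendrocyte-like nuclei. Its highest level was 2519 ± 351 CPM in striatal-like nuclei, followed by 2082 ± 239 CPM in the Angpt1-Ntng1-led class and 2028 ± 222 CPM in Ex_NP-like (near-projecting) nuclei. The paper describes striatal cells among its nuclei as contamination from outside the cortex. The step from the striatal-like class to the next was larger than the spread, and the striatal-like class was highest in 7 of 8 mice. Its lowest levels were 215 ± 50.1 CPM in oligodendrocyte-like and 190 ± 35.3 CPM in astrocyte-like nuclei, below all other classes beyond the spread. OPC-like nuclei, the oligodendrocyte precursors, held 755 ± 68.1 CPM, close to Ex_L6-like nuclei with 736 ± 105 CPM. Excitatory and inhibitory nuclei as a whole had similar levels, 1247 ± 156 CPM and 1308 ± 181 CPM.

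Grm3, of group II, peaked in astrocytes. Astrocyte-like nuclei were highest in 8 of 8 mice with 1999 ± 332 CPM, and this was the only step between neighbors in the whole order of Grm3 that exceeded the spread. Oligodendrocyte-like nuclei followed with 981 ± 269 CPM, close to Ex_L4-like nuclei with 909 ± 207 CPM and Ex_L6-like nuclei with 777 ± 187 CPM. Grm3 differed strongly among excitatory classes, since claustrum-like nuclei held 86.9 ± 54.7 CPM and the Ntng1-Fyb2-led class 48.7 ± 30.7 CPM. Inhibitory nuclei held 110 ± 22.6 CPM as a whole, and OPC-like nuclei 80.8 ± 38.6 CPM, at place 23 of the 26 classes. CPM is a share of a class's UMIs, and the median nucleus held 1207.5 UMIs in the astrocyte-like and 1933 in the Ex_L4-like class. Although astrocytes had the highest CPM, 73.7% of all Grm3 UMIs came from excitatory nuclei, 9.77% from astrocytes, 8.13% from striatal-like and 2.85% from oligodendrocytes. These classes held 73.3%, 2.32%, 6.57% and 1.19% of the UMIs of all genes. Microglia-like nuclei held 506 ± 150 CPM of Grm3, but also 799 ± 181 CPM of Grm5 and 895 ± 147 CPM of Grm7, and the vesicular glutamate transporter Slc17a7 was detected in them at 116 CPM.

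Grm2, the other group II gene, was found at a low level almost wholly in excitatory nuclei, which gave 91.7% of its UMIs and 73.3% of those of all genes. It was highest in the Angpt1-Ntng1-led class with 47.9 ± 20.1 CPM and in Ex_L4-like nuclei with 40.2 ± 10.8 CPM, and these did not differ beyond their spread. Ex_L6-like nuclei held 4.79 ± 1.78 CPM. In inhibitory nuclei only 24 UMIs were counted in 8 mice, and in Inh_Pv-like nuclei 2, so that levels outside excitatory classes could not be told from stray RNA at this depth.

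Grm4 was the scarcest of the group III genes, and no step between neighbors in its order exceeded the spread. The mean was 36 ± 9.3 CPM in striatal-like nuclei, with 35.8 ± 36.9 CPM in the Tshz2-Slc17a6-led class and 35.8 ± 19.4 CPM in Ex_NP-like nuclei beside it. Ex_L2/3-like nuclei, the largest class, held 4.08 ± 1.40 CPM. The striatal-like nuclei gave 19.6% of all Grm4 UMIs and 6.57% of those of all genes.

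Grm7, a presynaptic group III receptor, separated inhibitory classes from each other. Inh_Vip-like nuclei held 1900 ± 201 CPM and Inh_Sst-like nuclei 1242 ± 173 CPM, against 327 ± 52.0 CPM in Inh_Pv-like and 252 ± 51.0 CPM in Inh_Ndnf-like nuclei. Excitatory classes also differed. The Ntng1-Fyb2-led class was highest with 2920 ± 328 CPM, Ex_L4-like nuclei followed with 2386 ± 362 CPM, and Ex_L6-like and claustrum-like nuclei both stood at 689 CPM, with SDs of 98.3 and 99.1 CPM. Astrocyte-like nuclei were lowest with 150 ± 34.5 CPM.

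Grm8 had the steepest order of the well-measured receptors next to Grm3. The Ntng1-Fyb2-led class was highest in 8 of 8 mice with 1194 ± 197 CPM, beyond the spread of the next class, Ex_NP-like nuclei, with 671 ± 189 CPM. Excitatory classes differed widely. Ex_L6-like nuclei had 594 ± 123 CPM and Ex_L5-like nuclei 511 ± 144 CPM, compared with 140 ± 24.7 CPM in Ex_L2/3-like and 99.3 ± 18.3 CPM in Ex_L4-like nuclei. The Ctgf-Cdh18-led class held 150 ± 50.4 CPM, within the spread of Ex_L2/3-like nuclei. Among inhibitory classes Inh_Vip-like nuclei stood at 452 ± 160 CPM, whereas Inh_Pv-like nuclei, the lowest of all 26 classes, held 31 ± 11 CPM. Parvalbumin-like interneurons were therefore at the low end for both Grm7 and Grm8, and Vip-like interneurons at the high end of the inhibitory classes for both.

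**Figure D1:**
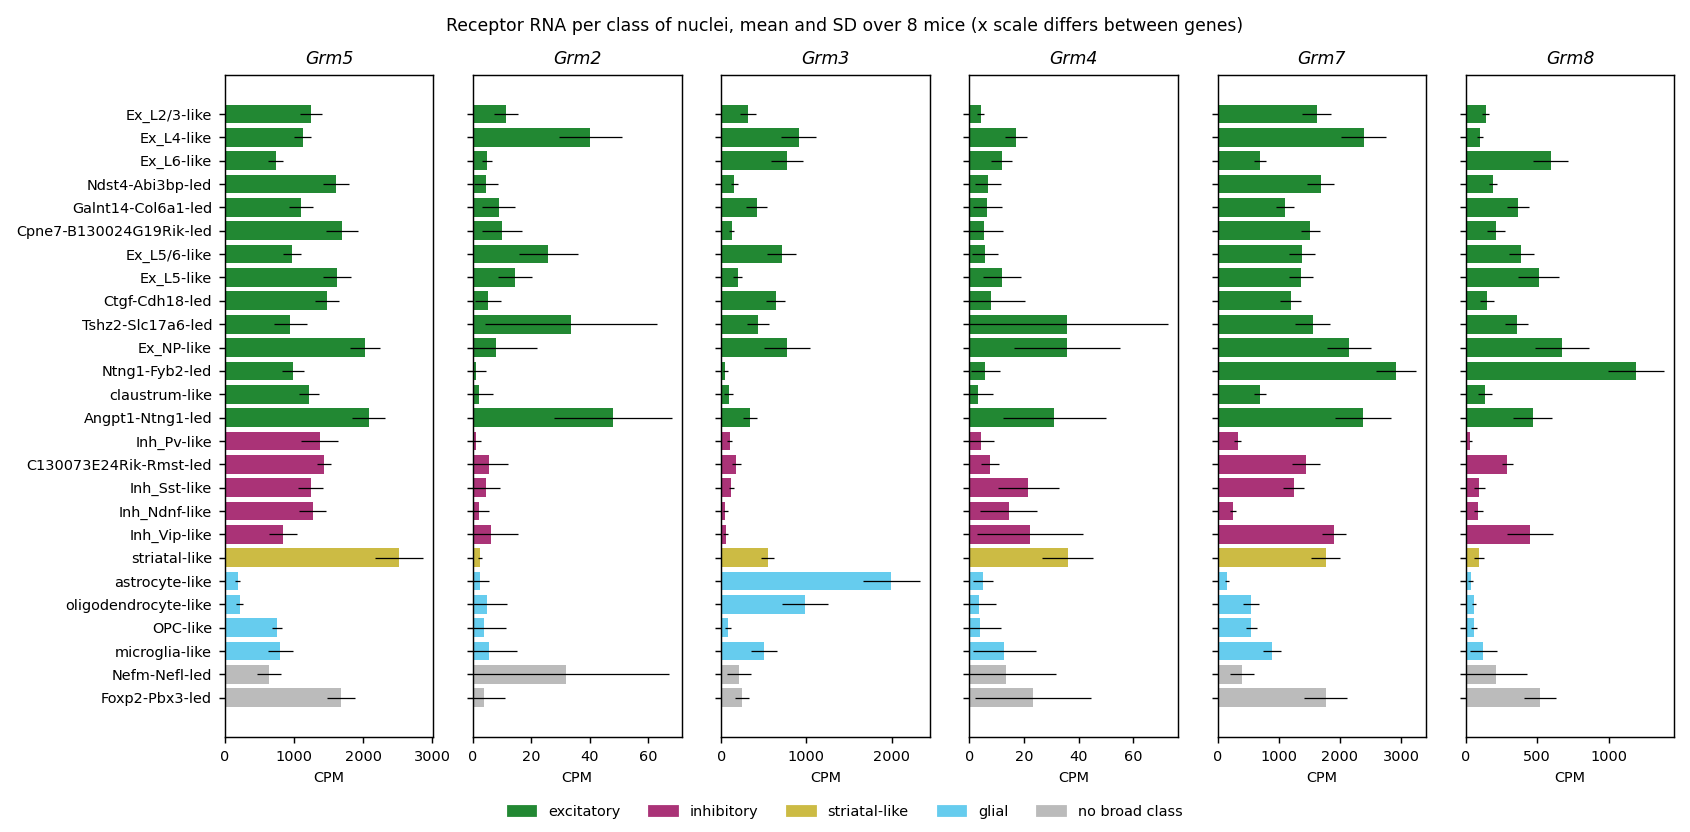
Receptor RNA (CPM, horizontal axis, a different scale for each gene) in the 26 classes of nuclei (vertical axis), as means over 8 mice with SD as lines. Grm3 peaks in astrocyte-like nuclei (1999 CPM), Grm5 in striatal-like nuclei (2519 CPM), and Grm7 and Grm8 in the Ntng1-Fyb2-led excitatory class (2920 and 1194 CPM).

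Across the 26 classes the levels of Grm7 and Grm8 went together most among the 15 pairs of members (Pearson r = 0.66 of log2(CPM + 10)), followed by Grm5 and Grm7 (r = 0.61), and Grm3 and Grm5 were the most opposed (r = -0.34). The classes share libraries and neuronal RNA, so these values are descriptions. By the same measure, the genes most like Grm5 among 8075 ranked were Pdzd4 (r = 0.90), Ptprn2 (r = 0.90) and C230004F18Rik (r = 0.89). Those most like Grm7 were Lrrc7 (r = 0.81), Esyt2 (r = 0.80) and Kcnb2 (r = 0.79), and those most like Grm8 were Dync1i1 (r = 0.75), Pcsk1 (r = 0.74) and Soga3 (r = 0.72). For Grm3 they were B3galt1 (r = 0.73), Ptk2 (r = 0.70) and Fam53b (r = 0.69). For the scarce members, Grm2 was most like Glt8d2, Ing2 and Zbtb18 (r = 0.74, 0.73 and 0.73) and Grm4 most like Klhl33, 4930598N05Rik and Nrsn2 (r = 0.72, 0.66 and 0.65).

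The bulk libraries asked whether nuclear receptor RNA of the mPFC differed between CUS and control mice. None of the 6 genes was called at a false discovery rate (FDR) of 0.05 with p-values from edgeR's quasi-likelihood test adjusted after Benjamini-Hochberg, a test that called 3.29% of 18394 genes. At an unadjusted p under 0.05 there were 3 members, Grm8, Grm2 and Grm3, compared with 21.5% of all genes. The likelihood ratio test of edgeR and DESeq2 each called 1, Grm8, and called 7.23% and 8.51% of all genes. In whole tissue, fewer cells of a type and less RNA per cell cannot be told apart.

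Grm8 had the smallest p. Control mice held 697, 678, 718 and 585 CPM, and CUS mice 764, 800, 759, 819 and 829 CPM. Every CUS mouse was above every control mouse, as was the case in that direction for 4.06% of all genes tested (8.76% in either direction). The log2 fold change was 0.25 (SE 0.07), with an edgeR quasi-likelihood adjusted p of 0.0616, just over the threshold. It was 0.0242 by the likelihood ratio test and 0.00915 by DESeq2, and between 0.0237 (without control replicate 3) and 0.152 when each mouse was left out. The markers of excitatory neurons were all above 0 in the same comparison, with 6 of 6 fold changes positive and 1 called. Their summed level was 2272 to 3198 CPM in control and 3122 to 3251 CPM in CUS mice. The lists of single layers differed in direction. Fold changes below 0 were found for 5 of 6 markers of Ex_L6 (1 called lower), 3 of 3 tested of Ex_L6b and 5 of 7 of Ex_L4, but for 1 of 6 of Ex_L5, 0 of 5 of Ex_L5/6 (1 called higher), 2 of 5 of Ex_NP (1 called higher) and 2 of 7 of Ex_L2/3. The summed Ex_L6 markers were 1093 to 1319 CPM in control and 882 to 1521 CPM in CUS mice. Of the claustrum markers 4 of 5 were below 0 (1 called lower), of the inhibitory markers 5 of 5 and of Inh_Vip 4 of 5. It was 2 of 4 tested for each of Inh_Pv and Inh_Sst, and 2 of 6 for Inh_Ndnf (1 called lower and 1 higher). The part of these cells in the difference of Grm8 was not tested.

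Grm3 was lower in the mean of CUS mice. Control mice held 684, 565, 522 and 435 CPM and CUS mice 447, 453, 548, 424 and 423 CPM, so the groups overlapped. The log2 fold change was -0.26 (SE 0.11, adjusted p = 0.201 by edgeR's quasi-likelihood test), and without control replicate 1, the highest mouse, it was -0.15. The glial marker lists differed in direction. Of the astrocyte markers, 7 of 8 had fold changes below 0 and 3 were called lower, with a summed level of 2405 to 2792 CPM in control and 2177 to 2529 CPM in CUS mice. Of the oligodendrocyte markers 8 of 8 were below 0 and none was called, with sums of 274 to 641 CPM and 296 to 372 CPM. Of the markers of newly formed oligodendrocytes 6 of 6 were below 0 and 2 were called lower, with sums that did not overlap (187 to 211 CPM and 165 to 184 CPM). Of the OPC markers 5 of 6 were below 0 and 1 was called lower (330 to 407 CPM and 258 to 320 CPM), whereas of the microglia markers only 2 of 6 were below 0 (127 to 135 CPM and 125 to 144 CPM). The part of these cells in the Grm3 difference was not tested.

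Grm2 stood at 19.3, 19.1, 18.3 and 12.5 CPM in control and 23.1, 23.2, 18.6, 20.6 and 19.5 CPM in CUS mice. The groups overlapped, and the mean difference leaned on control replicate 4, the lowest mouse. The log2 fold change was 0.28 (SE 0.12, adjusted p = 0.194 by edgeR's quasi-likelihood test), and 0.16 without that mouse.

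The differences of the remaining receptors were small. Grm5 held 1434, 1388, 1274 and 1345 CPM in control and 1284, 1501, 1429, 1345 and 1406 CPM in CUS mice, with a log2 fold change of 0.03 and an approximate 95% interval of -0.09 to 0.16. Grm7 held 2203, 1979, 2052 and 1720 CPM in control and 2016, 2124, 2065, 1851 and 1877 CPM in CUS mice, with an interval of -0.15 to 0.15 around a difference near 0. Grm4 held 17.3, 24.9, 26.3 and 21.1 CPM against 24.5, 23.5, 22.6, 23.0 and 22.0 CPM, with an interval of -0.15 to 0.24. For Grm5 and Grm7, rises or falls of more than 0.16 on the log2 scale lay outside these approximate intervals. Grm4, with 458 to 740 reads per mouse, had a wider one. The summed markers of striatal neurons, where Grm5 is high, were 1040 to 1504 CPM in control and 1542 to 1785 CPM in CUS mice, although 8 of 9 had fold changes below 0 and none of these was called. The exception was Pde10a, a phosphodiesterase gene, which was called higher (778 CPM in control and 1187 CPM in CUS mice) and made up most of the sum. The part of these markers was not tested.

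**Figure D2:**
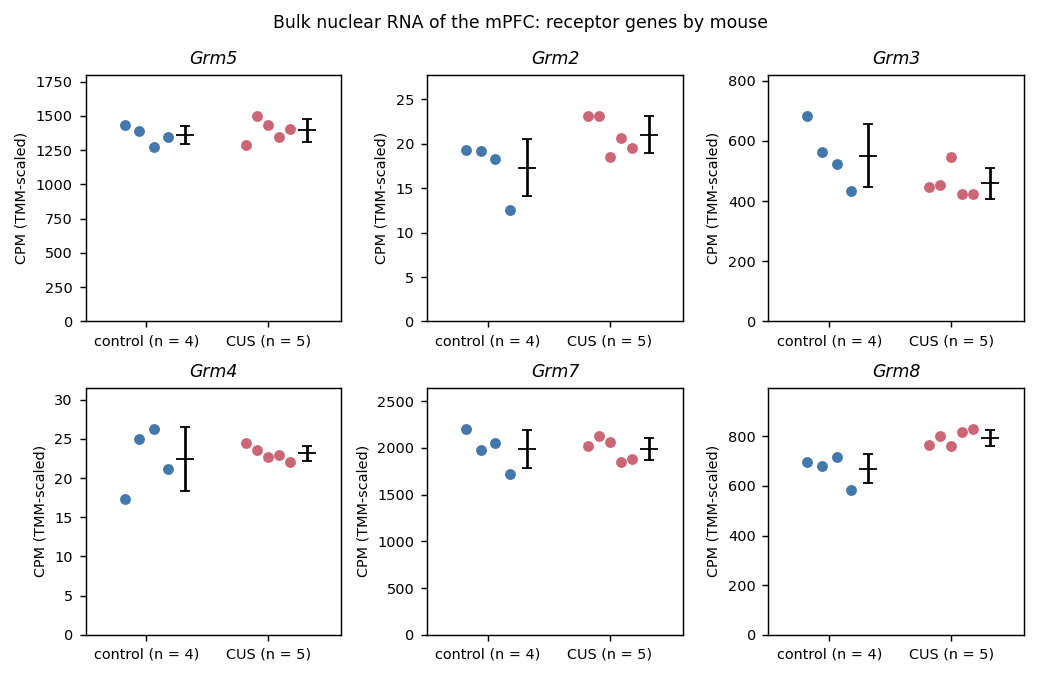
CPM of the 6 receptor genes in bulk nuclear RNA of the mPFC (vertical axis, TMM-scaled, a different scale for each gene), with 1 point per mouse and the mean ± SD as a bar beside 4 control and 5 CUS mice. All 5 CUS mice lie above all 4 control mice for Grm8 (759 to 829 against 585 to 718 CPM), and the groups overlap for the other receptors.

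In the neocortex, the receptors with enough UMIs lay lower in the mean of CUS mice. For all nuclei together, Grm3, Grm5 and Grm7 were called without CUS replicate 2 and not with it, and Grm8 was called in neither fit. Summed over all nuclei, the log2 fold changes were -0.32 (SE 0.16) for Grm3, -0.20 (SE 0.14) for Grm5, -0.20 (SE 0.14) for Grm7 and -0.24 (SE 0.11) for Grm8. None of these 4 passed an FDR of 0.2 by edgeR's quasi-likelihood test, none had an unadjusted p under 0.05 (8.06% of all genes did), and none was called by the likelihood ratio test or DESeq2 (0.419% and 0.558% of all genes were). The quasi-likelihood test called 0.0199% of 5015 genes with all 8 mice, and 16.5% without CUS replicate 2. In the latter fit Grm3, Grm5 and Grm7 were called (log2 fold changes of -0.49, -0.32 and -0.32). Without CUS replicate 1 the values of Grm3, Grm5, Grm7 and Grm8 were -0.20, -0.10, -0.11 and -0.14, and none was called. Grm2 and Grm4 were under the filter on low UMIs in all nuclei.

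Excitatory nuclei gave most of these UMIs. Grm3 stood there at 469, 520, 534 and 572 CPM in control and 282, 568, 406 and 388 CPM in CUS mice. CUS replicate 2 lay among the control mice, and the other 3 CUS mice lay below all of them. Its log2 fold change was -0.35 (SE 0.18, adjusted p = 0.541 by edgeR's quasi-likelihood test), and -0.59 (adjusted p = 0.0871) without that mouse. The latter passed the FDR of 0.2, in a fit that called 12.3% of all genes in excitatory nuclei. Leaving out CUS replicate 1, the lowest mouse, gave -0.20 (adjusted p = 0.946). Markers of astrocytes, the class with the most Grm3, were present in excitatory nuclei at a similar sum in both groups, 713 to 777 CPM in control and 672 to 819 CPM in CUS mice, with 3 of 8 lower in the mean of CUS. Of the oligodendrocyte markers 6 of 8 were lower there, with sums of 235 to 267 CPM in control and 218 to 343 CPM in CUS mice. The part of glial RNA in the excitatory Grm3 values was not tested.

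Grm7 in excitatory nuclei stood at 1582, 1816, 1575 and 1800 CPM in control and 1235, 1696, 1496 and 1446 CPM in CUS mice. Again CUS replicate 2 was the only CUS mouse within the control range. Grm7 had a log2 fold change of -0.22 (SE 0.13, adjusted p = 0.563 by edgeR's quasi-likelihood test). Without CUS replicate 2 it was -0.33 and passed the FDR of 0.2 (adjusted p = 0.160), beside 12.3% of all genes. It was -0.13 (adjusted p = 0.946) without CUS replicate 1.

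Grm8 in excitatory nuclei stood at 312, 364, 301 and 339 CPM in control and 225, 279, 302 and 269 CPM in CUS mice. Here CUS replicate 3, not replicate 2, reached the lowest control mouse. A log2 fold change of -0.31 (SE 0.12, adjusted p = 0.511 by edgeR's quasi-likelihood test) resulted, the only one in the 6 broad classes with an unadjusted p under 0.05. An unadjusted p under 0.05 was found for 9.43% of all genes in excitatory nuclei. Without CUS replicate 2 the fold change was -0.36 and passed the FDR of 0.2 (adjusted p = 0.150), beside 12.3% of all genes. Without CUS replicate 1 it was -0.22 (adjusted p = 0.946). Grm8 thus lay higher in CUS mice in the bulk mPFC and lower in the nuclei of the neocortex. The brain region, age, assay and animals differed between the 2. By the methods, bulk tissue was taken a day after the last behavioral test and the tissue for nuclei a day after the last stressor. The difference was not tested.

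Grm5 in excitatory nuclei stood at 1110, 1511, 1274 and 1363 CPM in control and 1009, 1321, 1179 and 1206 CPM in CUS mice, which overlapped widely. The log2 fold change was -0.17 (SE 0.13), -0.26 without CUS replicate 2 and -0.087 without CUS replicate 1. In striatal-like nuclei, where Grm5 is highest, the values were 2369, 2788, 2541 and 2822 CPM against 1926, 3008, 2238 and 2462 CPM, with a log2 fold change of -0.11 (SE 0.17), -0.28 without CUS replicate 2 and -0.0084 without CUS replicate 1. Striatal-like nuclei, which the paper counts as carry-over of the dissection, made up a mean of 9.46% ± 1.36 of control and 5.68% ± 2.81 of CUS nuclei (SD, n = 4 each, exact permutation test, two-sided, p = 0.0857). CUS replicate 2 held 9.57%, within the control range of 7.72% to 10.9%, and the other 3 CUS mice held 5.24%, 5.05% and 2.86%, below every control mouse. In the fit of all nuclei that called Grm5, without CUS replicate 2, the groups thus did not overlap in this share. The summed striatal markers in excitatory nuclei were 590 to 726 CPM in control and 699 to 943 CPM in CUS mice, with 3 of 9 lower in the mean of CUS. The part of striatal RNA in the Grm5 values was not tested.

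**Figure D3:**
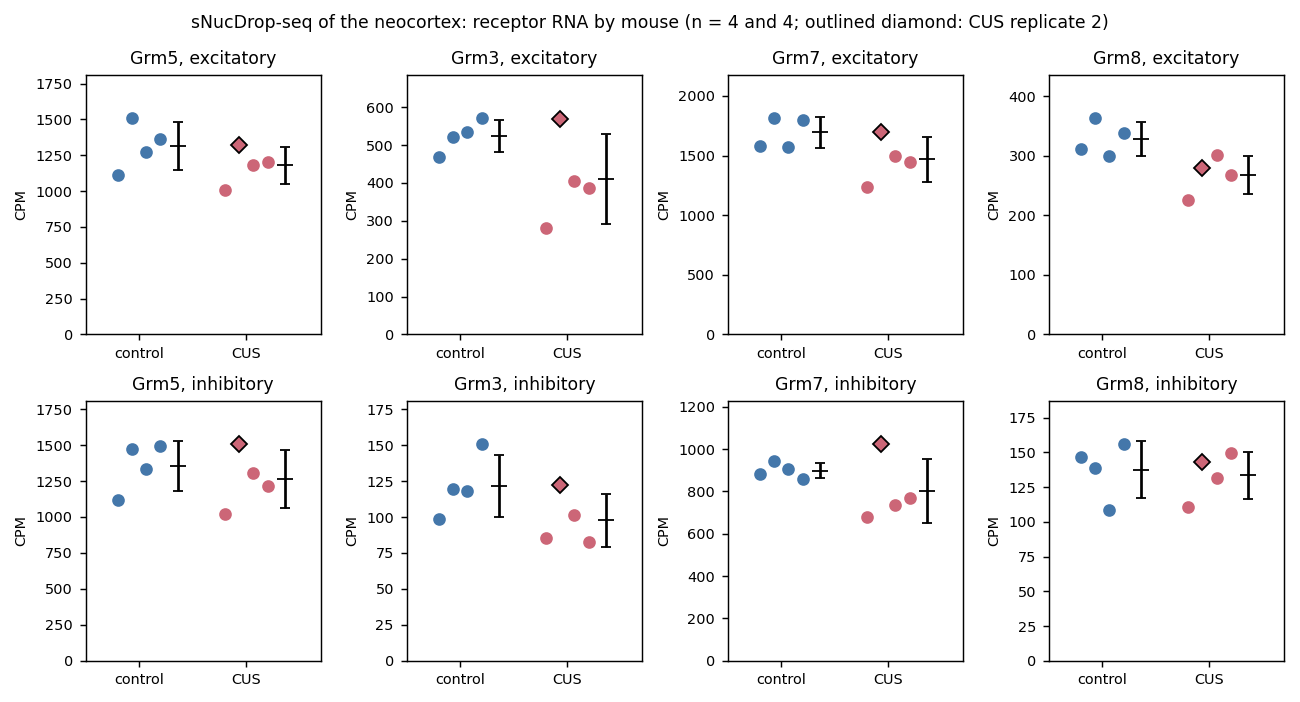
CPM of Grm5, Grm3, Grm7 and Grm8 (vertical axis) in excitatory (top) and inhibitory (bottom) nuclei of the neocortex, with 1 point per mouse and the mean ± SD beside 4 control and 4 CUS mice. The outlined diamond is CUS replicate 2, which lies within or above the control range for Grm3, Grm5 and Grm7, while the other 3 CUS mice lie below all control mice for Grm3 and Grm7 in excitatory nuclei.

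In inhibitory nuclei Grm8 stood at 146, 139, 108 and 156 CPM in control and 111, 143, 131 and 150 CPM in CUS mice. The groups overlapped fully, with a log2 fold change of -0.02 (SE 0.15), and -0.07 without CUS replicate 2. For Grm3 the inhibitory fold change was -0.31 (SE 0.17), for Grm7 -0.16 (SE 0.15) and for Grm5 -0.10 (SE 0.15), and none was called. These were -0.46, -0.33 and -0.23 without CUS replicate 2, with none called. With each mouse left out, the values nearest 0 were -0.21 for Grm3 (without CUS replicate 4), -0.079 for Grm7 and -0.0033 for Grm5 (both without CUS replicate 1). Of all genes, the test called 0% in the inhibitory, striatal-like, astrocyte-like and oligodendrocyte-like nuclei and 0.152% in the OPC-like nuclei, and without CUS replicate 2 these shares were 2%, 0%, 0.449%, 0.0397% and 0.076% in the same order. Whether the CUS difference itself differed between the 2 neuronal types was tested on the difference between excitatory and inhibitory log2(CPM + 1) in each mouse. For Grm8 this difference was 1.26 ± 0.19 in control and 1.00 ± 0.15 in CUS mice (SD, n = 4 each), a change of -0.26 with p = 0.114 by the exact permutation test, two-sided, and 0.686 after adjustment over 6 genes. Leaving out CUS replicate 2 gave a change of -0.24 (exact permutation p = 0.20). The other 5 receptors had exact p-values of 0.286 to 0.886, and 0.0286 was the smallest p that 4 against 4 mice allow.

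In glia no difference of Grm3 was called. Astrocyte-like nuclei held 1795, 2322, 2181 and 1982 CPM of Grm3 in control and 1304, 2289, 2161 and 1960 CPM in CUS mice, with the groups overlapping except for CUS replicate 1 below the rest. Grm3 had a log2 fold change of -0.10 there, with an approximate 95% interval of -0.41 to 0.22. In oligodendrocyte-like nuclei it was 0.08 (-0.39 to 0.54). The values were -0.20 and 0.10 without CUS replicate 2, and the astrocyte value was 0.060 without CUS replicate 1. In OPC-like nuclei, with 48 UMIs in 8 mice, the log2 fold change was -0.10 (-1.06 to 0.85), and 0.08 without CUS replicate 2. The intervals over all 8 mice still hold the excitatory value of -0.35 for all 3 glial types.

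Grm2 in excitatory nuclei stood at 13.4, 15, 14.1 and 12.3 CPM in control and 16.7, 9.76, 19.5 and 22.6 CPM in CUS mice. CUS replicates 1, 3 and 4 were above every control mouse and CUS replicate 2 below them all. With 784 UMIs in 17429 nuclei the gene was under the filter, and a fit without the filter gave a log2 fold change of 0.28 (adjusted p = 0.719 by edgeR's quasi-likelihood test). Grm4 in excitatory nuclei ranged from 9.10 to 13 CPM in control and from 6.10 to 11.7 CPM in CUS mice, and in striatal-like nuclei from 21.4 to 51.0 CPM and from 29.7 to 44.8 CPM, so the groups overlapped in both.

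Within the 26 finer classes, 100 of the 156 combinations of member and class passed the filter on low UMIs, and 0 were called at an FDR of 0.2 by edgeR's quasi-likelihood test, which called 0.0708% of all genes over these classes. The likelihood ratio test called 1 and DESeq2 0 (0.294% and 0.0554% of all genes). Without CUS replicate 2 there were 7 calls, 5 of Grm3 and 2 of Grm7, all below 0, beside 1.03% of all genes. That share was uneven, at 14.1% in Ex_L2/3-like and 5.28% in Ex_L4-like nuclei, and Grm3 was among the 7 calls in both. An unadjusted p under 0.05 was found in 16 combinations, of which 11 were Grm3, 3 Grm8 and 2 Grm7, compared with 5.87% of all genes in these classes. The fits share mice, so these combinations are not independent. Fold changes were below 0 in 23 of 25 classes for Grm3 (median -0.36), 24 of 26 for Grm5 (-0.12), 23 of 26 for Grm7 (-0.15) and 17 of 22 for Grm8 (-0.30). With CUS replicate 2 left out they were below 0 in 22 of 25 classes for Grm3 (median -0.56), 26 of 26 for Grm5 (-0.23), 23 of 26 for Grm7 (-0.26) and 17 of 22 for Grm8 (-0.37). With CUS replicate 1 left out the counts were 22 of 25 (-0.30), 22 of 26 (-0.079), 21 of 26 (-0.13) and 16 of 22 (-0.20) in the same order. Over all genes the share below 0 was 46.7% to 51.8% per class. Long genes as a whole were lower in the same classes. For genes spanning over 200 kb, which include these 4 receptors, the class median was below 0 in 24 of 26 classes, between -0.20 and 0.10, and in excitatory nuclei it was -0.12 with 82.6% of 726 long genes below 0. The part of gene length in the receptor values was not tested.

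Ex_L2/3-like nuclei had the smallest adjusted p of the 100 combinations. Grm3 stood there at 302, 375, 427 and 413 CPM in control and 168, 356, 232 and 255 CPM in CUS mice, with CUS replicate 2 alone inside the control range. This gave a log2 fold change of -0.60 (SE 0.18, adjusted p = 0.206 by edgeR's quasi-likelihood test), and 0.737% of all genes in the class passed the threshold. Without CUS replicate 2 it was -0.85 (adjusted p = 0.00381), in a fit that called 14.1% of all genes, and -0.43 (adjusted p = 0.628) without CUS replicate 1. The likelihood ratio test called Grm3 in this class (adjusted p = 0.102, beside 2.78% of all genes), as did the quasi-likelihood test without the filter on low counts (adjusted p = 0.00683, beside 0.312% of all genes). In Ex_L4-like nuclei Grm7 stood at 2489, 2891, 2574 and 2744 CPM in control and 1795, 2351, 2117 and 2125 CPM in CUS mice, which did not overlap. Its log2 fold change was -0.36 (SE 0.13, adjusted p = 0.366), and 2.74% of all genes in this class were lower in CUS without overlap. Grm3 in the same nuclei stood at 913, 1058, 1065 and 1048 CPM in control and 490, 1094, 831 and 775 CPM in CUS mice, with a log2 fold change of -0.36 (SE 0.17, adjusted p = 0.482). Both were called in Ex_L4-like nuclei without CUS replicate 2, Grm7 at -0.45 (adjusted p = 0.125) and Grm3 at -0.58 (adjusted p = 0.0746), beside 5.28% of all genes. Without CUS replicate 1 they were -0.29 and -0.19, and neither was called.

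Groups failed to overlap in 5 of the 100 combinations, all lower in CUS, compared with 3.31% of all genes in these classes (1.72% lower). Besides Grm7 in Ex_L4-like nuclei they were Grm7 in claustrum-like and Foxp2-Pbx3-led nuclei, Grm3 in the Ntng1-Fyb2-led class and Grm8 in the Angpt1-Ntng1-led class. Grm8 stood in the last at 605, 527, 707 and 489 CPM in control and 396, 374, 326 and 328 CPM in CUS mice, with a log2 fold change of -0.81 (SE 0.24, adjusted p = 0.492 by edgeR's quasi-likelihood test). That class held 228 nuclei, 9 to 82 per mouse, and 354 UMIs of Grm8. Grm3 in the Ntng1-Fyb2-led class stood at 46.1, 62.0, 112 and 65.7 CPM against 25.1, 28.4, 20.04 and 30.8 CPM, a log2 fold change of -1.53 (SE 0.42, adjusted p = 0.431) that rests on 68 UMIs. In Ex_L5-like nuclei Grm8 stood at 621, 730, 535 and 541 CPM against 265, 374, 559 and 458 CPM, with a log2 fold change of -0.57 (SE 0.17, adjusted p = 0.577). Inh_Vip-like nuclei lay on the other side for Grm8, with a log2 fold change of 0.51 (SE 0.27), 244 to 481 CPM in control and 328 to 721 CPM in CUS mice, and groups that overlapped. These 4 fold changes were -0.83, -1.58, -0.54 and 0.54 in the same order without CUS replicate 2, and none was called. Grm8 in Ex_L5-like nuclei was called without CUS replicate 3 (-0.74, adjusted p = 0.130, beside 0.167% of all genes) and stood at -0.40 without CUS replicate 1. Grm3 in claustrum-like nuclei, with a log2 fold change of -1.43 (SE 0.38, adjusted p = 0.357) on 101 UMIs, was called without control replicate 1 (-1.58, adjusted p = 0.102, beside 0.139% of all genes).

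**Figure D4:**
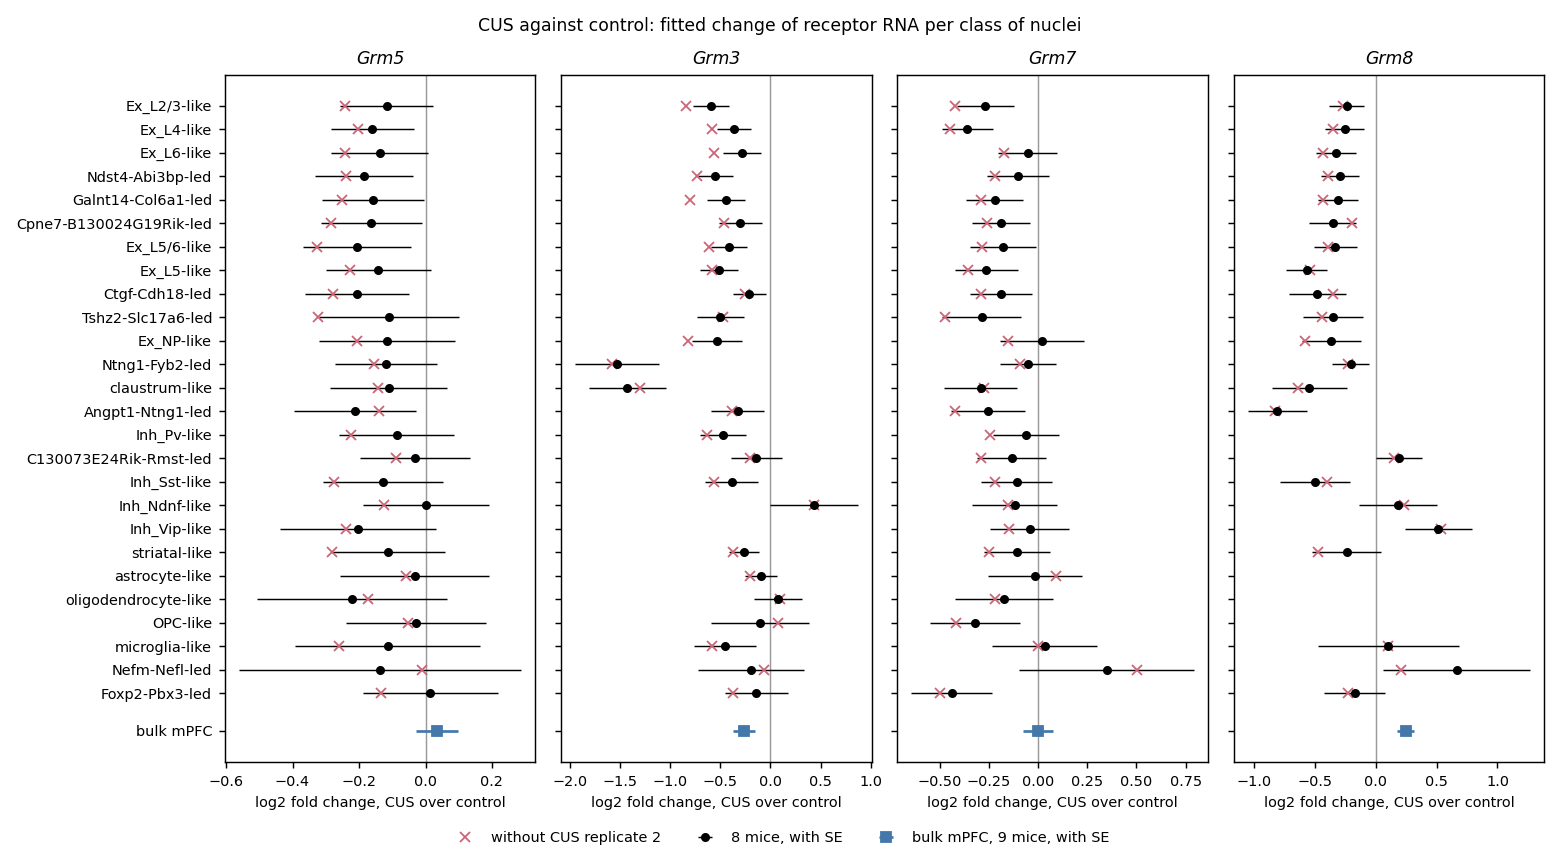
Fitted log2 fold change of CUS over control (horizontal axis, a different scale for each gene) for Grm5, Grm3, Grm7 and Grm8 in the classes of nuclei with enough UMIs (vertical axis), as points with SE from 8 mice, as crosses without CUS replicate 2, and as squares with SE for the bulk mPFC of 9 mice. Most points lie below 0 in the nuclei, the bulk square of Grm8 lies above 0 (0.25), and Grm3 in Ex_L2/3-like nuclei moves from -0.60 to -0.85 without that mouse.

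The pathway around the receptors was read from a list of 57 genes. In bulk all 57 were tested, and 4 rose and 2 fell at an FDR of 0.05 by edgeR's quasi-likelihood test, beside 1.16% of all genes that rose and 2.13% that fell. The median log2 fold change was 0.02 for the list and 0.01 for all genes. On the Gq side of 20 genes, the protein kinase C gene Prkcb rose by 0.41 (642 ± 126 CPM in control and 855 ± 41.2 CPM in CUS mice) and the IP3 receptor gene Itpr1 by 0.28 (661 ± 69.8 and 803 ± 34.9 CPM) on the log2 scale. The scaffold gene Homer1, whose product can link group I receptors to IP3 receptors and Shank, fell by 0.35 (562 ± 59.3 and 442 ± 39.4 CPM). Counts per gene do not tell its transcripts apart. On the Gi/o side 1 of 18 genes changed, the G protein-gated potassium channel gene Kcnj9, which rose by 0.31 (60.9 ± 4.44 and 75.7 ± 2.69 CPM, adjusted p = 0.0162). Among 12 genes of glutamate supply and clearance, the cystine-glutamate exchanger gene Slc7a11 fell by 0.68 (91.9 ± 18.9 and 57.4 ± 10.1 CPM, adjusted p = 0.0296) and the vesicular transporter gene Slc17a8 rose by 0.51 (1.94 ± 0.23 and 2.76 ± 0.11 CPM). Slc17a8, at a low level, is also the Ex_NP marker counted above as called higher, so this is the same observation. The adjusted p-values of Homer1, Slc17a8, Prkcb and Itpr1 were 0.0402, 0.0489, 0.0495 and 0.04996, and 0 genes of the list were called without control replicate 2, CUS replicate 4 or CUS replicate 5, where 0.718%, 0.805% and 0.772% of all genes were called, against 18 without control replicate 3, where 8.15% were. None of 5 desensitisation genes and neither trans-synaptic partner, Elfn1 or Elfn2, was called.

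In the nuclei, 3 pathway calls at an FDR of 0.2 were found over the 26 classes, all lower in CUS (0.033% of all genes were called lower), and 20 without CUS replicate 2, beside 1.03% of all genes. In the latter fits 14.1% of all genes were called in Ex_L2/3-like and 5.28% in Ex_L4-like nuclei. Adcy8, a calcium-stimulated adenylyl cyclase, stood in Ex_L4-like nuclei at 459, 437, 460 and 444 CPM in control and 219, 313, 289 and 334 CPM in CUS mice, with no overlap, and a log2 fold change of -0.65 (SE 0.13, adjusted p = 0.0454 by edgeR's quasi-likelihood test). It also fell in Ex_L2/3-like nuclei, by 0.50 on the log2 scale (SE 0.14, adjusted p = 0.168). Kcnj3, another G protein-gated potassium channel subunit, fell in Ex_L4-like nuclei by 0.57 (SE 0.14, adjusted p = 0.167), from 411, 486, 437 and 491 CPM in control to 221, 379, 330 and 307 CPM in CUS mice. Its fold changes were below 0 in 23 of the 25 classes tested, and those of Adcy8 in 17 of 22. In Galnt14-Col6a1-led nuclei Kcnj3 stood at -0.60 with no overlap of the groups (adjusted p = 0.275 by edgeR's quasi-likelihood test). Without CUS replicate 2 that test also called Kcnj3 in Ex_L2/3-like, Galnt14-Col6a1-led and Ex_L6-like nuclei (adjusted p = 0.0477, 0.0448 and 0.175). Kcnj3 is named although it was called in only 1 class over all 8 mice, after its values were seen. In Ex_L4-like nuclei 0.464% of all genes were called. Without CUS replicate 2 the fold changes were -0.71 for Adcy8 and -0.71 for Kcnj3 in Ex_L4-like nuclei and -0.64 for Adcy8 in Ex_L2/3-like nuclei. Without CUS replicate 1 they were -0.53, -0.44 and -0.41, and only Adcy8 in Ex_L4-like nuclei was called (adjusted p = 0.0550 by edgeR's quasi-likelihood test). The list as a whole was not lower in these classes. Of its genes tested, 1 of 38 in Ex_L2/3-like and 2 of 35 in Ex_L4-like nuclei were called lower and 0 higher, and its median log2 fold changes of 0.05 and 0.06 lay above the 0.01 and 0.01 of all genes.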

How the data were processed

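Bulk nuclear RNA-seq (4 control and 5 CUS mice) and sNucDrop-seq (4 control and 4 CUS mice) were analysed from gene-level tables. For bulk, the authors aligned stranded, rRNA-depleted nuclear reads to mm10 with STAR and deposited raw counts of uniquely mapped reads per gene; the annotation release is not given in the sources used here. For nuclei, the authors deposited counts of UMIs per gene and barcode, from exonic and intronic reads on the sense strand. The submitters' processing notes name STAR, edgeR and Seurat without versions. Each replicate was 1 mouse.

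Bulk genes were filtered on low counts, scaled by TMM and tested with edgeR 4.0.16 (quasi-likelihood test, Benjamini-Hochberg adjustment, FDR 0.05). Nuclei with 600 to 5000 genes and at most 5% mitochondrial UMIs were kept, 15.8% were removed as doublets at a simulated doublet score over 0.2, and the rest were clustered with Seurat 5.3.0 (2000 variable genes without the 6 receptors, 50 components, resolution 1). UMIs were summed per mouse and class. Sums were tested in the same way at an FDR of 0.2 for genes with more summed UMIs than 10% of the number of nuclei. CPM in nuclei used all UMIs. Bulk CPM was TMM-scaled. Intervals of log2 fold changes are normal 95% intervals from the SE. The cut-offs for naming clusters were set after the clusters were seen, without regard to condition. The difference between neuronal types used a pseudocount of 1 CPM.

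Alternatives were edgeR's likelihood ratio test, DESeq2 1.42.0, no TMM, no filter on low counts, the replicate number as a block, each mouse left out, 2 other clustering resolutions, no doublet filter and at least 1000 genes per nucleus. Scripts were tested on simulated data. Named genes were the 6 receptors, the 3 genes most like each, and pathway genes called in bulk or in 2 or more classes. The receptors and all gene lists were chosen with earlier results of these data known. By the methods, the nuclei were prepared in 2 batches, each with 2 control and 2 CUS mice. The authors report a profound batch effect in their tests of expression and included batch in their model. The labels do not give each mouse's batch, so batch was not modelled here, and the SEs and calls in nuclei do not account for it.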

Additional observations from a re-analysis of the deposited data

Results flagged for a closer look

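Of 68 groups of 4 to 5 mice, 2 (2.94%) held a mouse whose gap to the others exceeded Dixon's limit, and chance alone gives about 5%. In bulk, Grm2 in control replicate 4 stood at 12.5 CPM, with the next control mouse at 18.3 CPM. Grm3 in CUS replicate 3 stood at 548 CPM, with the next CUS mouse at 453 CPM.

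Grm8 had a log2 fold change of 0.25 in the bulk mPFC and -0.24 in all nuclei of the neocortex. Every CUS mouse lay above the control mean in bulk and below it in the nuclei. The difference between the assays, which used different mice, regions, ages and times since stress, was not tested.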

How the results depend on the processing

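With each mouse left out, 0 to 1 receptors were called in bulk, 0 to 3 in all nuclei, 0 to 3 in the broad classes and 0 to 7 over the 26 classes, and pathway calls were 0 to 18 in bulk and 1 to 20 in the nuclei. The same fits called 0.718% to 8.15% of all genes in bulk, 0% to 16.5% in all nuclei, 0.00893% to 3.43% in the broad classes and 0.0313% to 1.03% over the 26 classes. The highest counts in nuclei were those without CUS replicate 2. The 3 broad-class calls of that setting were Grm3, Grm7 and Grm8 in excitatory nuclei, where 12.3% of all genes were called. Among the finer classes it called 14.1% of all genes in Ex_L2/3-like and 5.28% in Ex_L4-like nuclei. In bulk, 1 receptor, Grm8, was called by the likelihood ratio test (7.23% of all genes), by DESeq2 (8.51%) and without TMM (4.47%). DESeq2 also called 10 pathway genes. Over the 26 classes the likelihood ratio test called 1 receptor and 7 pathway genes (0.294% of all genes). Leaving out the filter on low counts called 1 receptor (0.0334% of all genes). The excitatory-minus-inhibitory change, with each mouse left out, ranged from -1.16 to -0.37 for Grm2, -0.14 to 0.029 for Grm3, -0.079 to 0.16 for Grm4, -0.076 to -0.013 for Grm5, -0.078 to 0.021 for Grm7 and -0.32 to -0.19 for Grm8, and for Grm4 it was -0.022 at 1000 genes per nucleus.

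Correlations between mice of the same replicate number were 0.0334 to 0.230 in bulk and -0.461 to 0.401 in the nuclei. So few pairs cannot decide whether replicate numbers pair the mice or share a batch. With the replicate block, 0 pathway genes and 1.29% of all genes were called in bulk, where Grm7 stood at 0.022 and the adjusted p of Grm8 was 0.154. Over the classes 2 receptors (Grm3 in Ex_L2/3-like, Grm7 in Ex_L4-like nuclei) and 10 pathway genes were called, beside 3.19% and 1.77% of all genes in these 2 classes and 0.257% over the 26.

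Signs of small, uncalled log2 fold changes turned as follows. Inhibitory Grm8 was 0.0017 at resolution 1.5 and 0.023 without the doublet filter. Astrocyte Grm5 and Grm7 were 0.29 and 0.94 at 1000 genes per nucleus, and 0.20 and 0.29 without the doublet filter. Oligodendrocyte Grm3 was -0.026 without the count filter, -0.078 at resolution 0.6 and -0.16 without the doublet filter, and Grm5 and Grm7 were 0.21 and 0.26 at resolution 0.6. OPC Grm5 was 0.011 at resolution 1.5 and 0.029 without the doublet filter, and OPC nuclei could not be fitted at 1000 genes, since a mouse had none. With each mouse left out, bulk Grm4 ranged from -0.061 to 0.13 and bulk Grm7 from -0.056 to 0.049. In the broad classes of nuclei the ranges that crossed 0 were -0.14 to 0.072 for inhibitory Grm8 and -0.47 to 0.10 for striatal-like Grm8. They were -0.20 to 0.060, -0.18 to 0.050 and -0.17 to 0.091 for astrocyte Grm3, Grm5 and Grm7. For oligodendrocyte Grm3 and Grm7 they were -0.040 to 0.38 and -0.27 to 0.10, and for OPC Grm3 and Grm5 -0.54 to 0.23 and -0.093 to 0.035. Ranges in finer classes crossed 0 too, such as -0.18 to 0.043 for Grm7 in Ex_L6-like nuclei and -0.22 to 0.011 for Grm5 in Inh_Pv-like nuclei. The cause was not tested. Depth limits Grm2 and Grm4 in the nuclei.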
